A study of Mus musculus with 6 samples.

Results

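The genes described here were the axon guidance families of mouse embryonic fibroblasts (MEFs), followed by RNA sequencing in cells with and without MCM8, a helicase of DNA repair and replication. Members were the protein-coding genes of the deposited table whose symbols name class 3 to class 7 semaphorins, plexins, neuropilins, Eph receptors, ephrins, netrins, Slits, Robo receptors or Unc5 receptors. They numbered 68 of the 55565 genes listed, or of 21884 protein-coding genes. By family there were 20 semaphorins, 11 plexins and neuropilins, 14 Eph receptors, 8 ephrins, 8 netrins and Unc5 receptors, and 7 Slits and Robo receptors.

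The study compared 3 WT libraries with 3 KO libraries to ask whether transcription differs in cells without MCM8, within work on R-loops, which are hybrids of RNA and DNA. KO cells lacked exon 7 of Mcm8, which was removed with CRISPR-Cas9 and left a frameshift. Trunks of E13.5 embryos from heterozygous parents gave the MEFs, after the head, tail, limbs, heart and liver had been taken off, and were cultured in DMEM with serum. The methods describe immortalization with a lentivirus carrying SV40gp6 and puromycin selection, which WT and KO cells then shared. The methods call the 3 repeats of a genotype biological. Neither they nor the labels say how many embryos or independent lines stood behind them. The p-values below therefore rest on the spread between these libraries, which may be in part technical. The main test took that spread from the trend over genes of like level, and not from each gene's own libraries.

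Axon guidance cues are secreted or membrane-bound proteins that attract or repel a growing nerve tip by way of receptors that act on the cytoskeleton. Netrins signal through DCC, neogenin and Unc5 receptors, Slits through Robo receptors, ephrins through Eph receptor kinases, and semaphorins through plexins, with neuropilins as coreceptors for most of class 3. The same proteins also serve outside the nervous system, in vessel growth, tissue boundaries, cell adhesion and the migration of mesenchymal cells such as fibroblasts.

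Libraries held from 12722979 to 21022755 counts, and levels are given in CPM, the counts of a gene per 1000000 counts of its library after TMM scaling, or, to compare genes with one another, as FPKM, which is also divided by gene length. Mcm8 itself stood at 13.8, 16.6 and 12.8 CPM in WT and at 4.20, 4.45 and 4.12 CPM in KO, 29.6% of WT. Xist lay between 940.3 and 1359 CPM in the WT libraries and between 474.3 and 494.3 CPM in the KO libraries. The sum of 4 Y-linked genes lay between 24.3 and 25.9 CPM in WT and between 107.9 and 125.6 CPM in KO. Every library thus held both Xist and Y-linked transcripts, and their levels differed between genotypes. That difference cannot be told apart from genotype in any comparison below, and its part in them was not tested. WT1 stood apart from WT2 and WT3, with a chi-square per gene of 14.3 and 13.3 against them, where WT2 and WT3 gave 4.40 and the KO pairs at most 3.05. The difference followed gene length. The median log2 ratio of WT1 to WT2 and WT3 was 0.17 over the 3307 shortest of 13222 genes with at least 1 CPM and -0.15 over the 3306 longest. Over the 57 members at that level it was -0.20, with a median length of 6855 bases for members against 4322 bases for all genes. Values without WT1 are given beside the 13 of 31 called members whose log2 fold change they moved by more than 0.1, and for Slit3.

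Fibroblast genes such as Col1a1 and Fn1 were abundant in every library, though not all markers were level between genotypes. Lum and Dcn, also among the markers summed below, were far scarcer. Their means over all libraries were 1.45 CPM (0.590 FPKM) for Lum and 13.3 CPM (2.27 FPKM) for Dcn. A list of 12 fibroblast markers such as Col1a1 and Fn1 summed to between 26836 and 31516 CPM in WT and between 30659 and 31549 CPM in KO. Of the 12, 3 were called higher and 4 lower, beside 9.08% and 7.88% of genes with at least 1 CPM. Those higher were Col1a1 with a log2 fold change of 0.20, Col3a1 with 0.29 and Fn1 with 0.29. Those lower were Thy1, a surface glycoprotein, with -1.03, Pdgfrb, a growth factor receptor, with -0.74, Postn with -0.45 and Vim with -0.19. The neuronal genes Rbfox3, Dcx and Snap25, the glial genes Sox10, Foxd3 and S100b, and the endothelial genes Cdh5, Tie1, Emcn and Cldn5 had 3 or fewer counts in each library. The 12 neuronal markers as a list summed to between 81.5 and 87.9 CPM in WT and between 152 and 156.7 CPM in KO. Most of that shift was Stmn2, a tubulin-binding protein that rose from a mean of 9.82 to 73.7 CPM, beside Tubb3, which rose from 19.9 to 31.7 CPM, while Map2, at 49.5 CPM in WT against 41.7 in KO, was not called. Mesothelial markers went from between 6.27 and 7.13 CPM in WT to between 49.3 and 56.0 CPM in KO, mostly through Msln, while Upk3b, Lrrn4 and Muc16 were at 3 or fewer counts. Epithelial markers went from between 0.642 and 1.18 CPM to between 5.53 and 6.68 CPM. Most of that was Krt18, with a mean of 0.572 CPM in WT and 4.56 CPM in KO, beside Krt8, with 0.0179 and 0.755 CPM. Krt5, Krt14, Cldn4 and Esrp1 were at 3 or fewer counts, and Epcam and Cdh1 were not called. The 8 Schwann and neural crest markers summed to between 4.08 and 5.70 CPM in WT and between 3.44 and 4.75 CPM in KO, the 8 endothelial markers to between 1.41 and 4.35 CPM and between 3.73 and 5.47 CPM, of which Erg, a transcription factor, rose from a mean of 0.314 to 1.06 CPM, and the 7 blood markers to between 1.803 and 2.52 CPM and between 2.16 and 3.40 CPM. The 6 muscle markers went from between 5.17 and 5.77 CPM to between 1.69 and 2.27 CPM, nearly all of it Pax3, with Myod1, Myf5, Myog and Pax7 at 3 or fewer counts. The part of these shifts in the results below was not tested, and in bulk RNA fewer cells of a type and less RNA per cell cannot be told apart.

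Most axon guidance genes were transcribed in these fibroblasts. Of the 68 members, 65 had a count in at least 1 library, 34 exceeded 1 FPKM on average in WT and 42 did so in KO, among them all 34 of WT. The highest level belonged to Plxnb2, a receptor for class 4 semaphorins, at 60.3, 75.5 and 75.3 FPKM in WT and 73.0, 73.8 and 73.4 FPKM in KO. Slit3 at a mean of 54.3 FPKM over all libraries, Unc5b at 49.9 FPKM, Plxna1 at 33.4 FPKM, Ephb4 at 26.9 FPKM and Nrp2 at 19.9 FPKM followed. In total 12 members averaged over 10 FPKM. At the other end, Epha6, Ephb1 and Robo4, a receptor of endothelial cells, had no count in any library. Epha10, Plxnb3 and Robo3 stayed at 3 or fewer counts in each library, which allows a level of up to 3 counts per library and does not show that they were silent. Epha5 had no count in WT and 4, 1 and 1 counts in KO, and no fold is given for it.

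**Figure D1:**
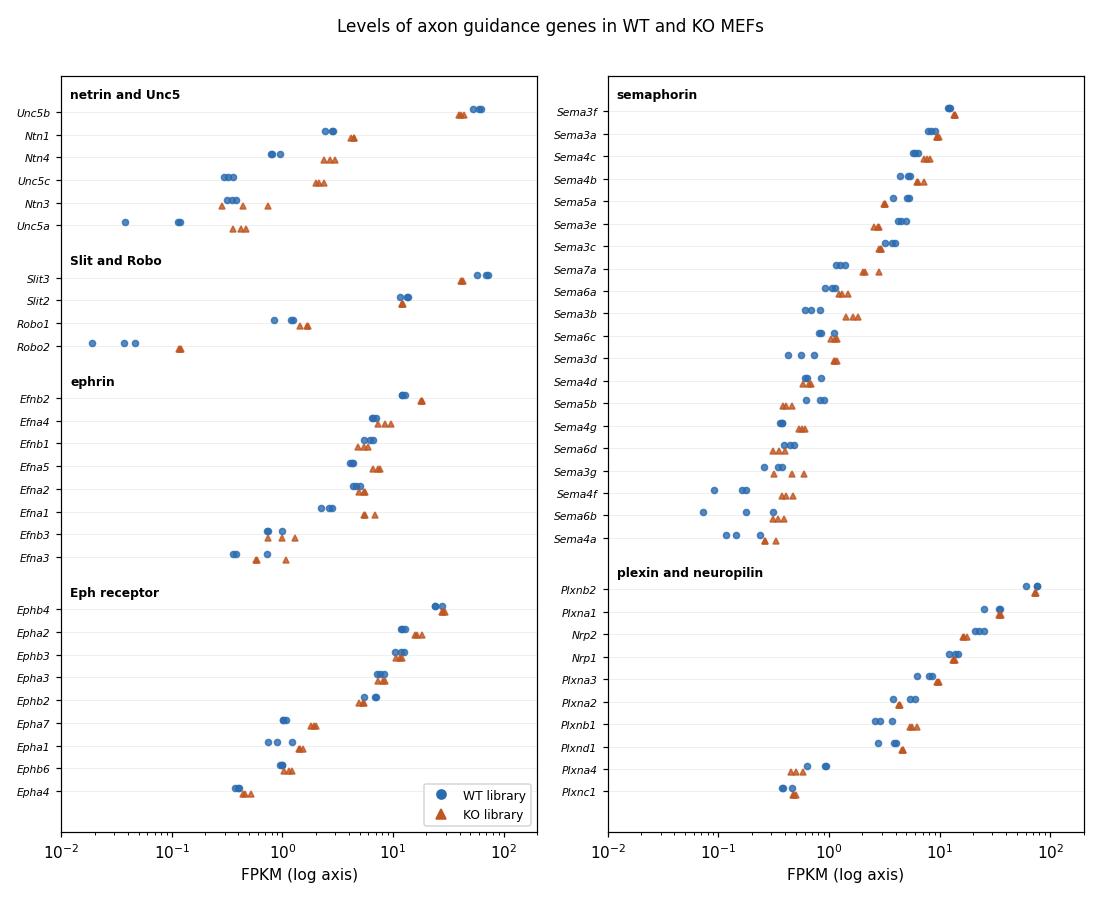
FPKM on a log axis of the 57 members with a mean of at least 1 CPM, grouped by family, with 3 WT libraries as circles and 3 KO libraries as triangles. The highest levels were those of Plxnb2, Slit3 and Unc5b, and the KO triangles of Unc5c, Unc5a, Robo2 and Ntn4 lay clear of the WT circles.

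More members rose than fell in KO cells. With edgeR's quasi-likelihood test on all 26898 genes with a count, and Benjamini-Hochberg adjustment over all of them, 21 of 65 members were higher in KO and 10 were lower at an adjusted p below 0.05, where 4.97% of all genes were higher and 4.03% lower. At a change of more than 2-fold as well, which is the study's rule for differentially expressed genes (DEGs), 7 members were higher, namely Unc5c, Unc5a, Robo2, Ntn4, Sema4f, Sema3b and Efna1, against a background of 1.75%. In the lower direction 0 members were DEGs by edgeR, by DESeq2 or by limma-voom, and 0 fell by more than 2-fold at an unadjusted p below 0.05 in edgeR, where the background of DEGs was 0.665%. The lowest log2 fold change of a called member was -0.91, for Sema5b.

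All 31 called members averaged at least 1 CPM, a level that 57 members reached and that favours detection. Of those 57 members 36.8% were called higher and 17.5% lower, where 9.08% of 13222 genes at that level were called higher and 7.88% lower. The 7 DEGs compare with a background of 2.54% at that level. Robo2, Sema4a, Sema4f, Sema6b and Unc5a had reached it with a WT mean under 1 CPM, and 3 of these were among the genes called higher. The KO libraries all lay above the WT libraries for 32 of the 57, where the background was 16.9%, and all below them for 9, where it was 17.2%. The median log2 fold change (KO over WT) was 0.34 over the 57 members, 41 of them positive, and -0.0077 over the 13222 genes, 48.5% of them positive. These shares describe the families, and no test was made of the families as a set.

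The 7 DEGs were genes of modest level. Their median WT level was 0.325 FPKM and their median KO level 1.63 FPKM. Over all members called higher the medians were 1.27 FPKM in WT and 2.68 FPKM in KO, and over those called lower 4.88 and 3.74 FPKM. The level in a genotype enters the call, so these medians are a description. Members called lower had a median length of 10564 bases and those called higher one of 5645 bases. Without WT1, the library that read long genes low, 20 members were called higher and 11 lower, 7 were DEGs in the higher direction, and Sema5b became a DEG in the lower direction. Of the 21 log2 fold changes above 0 among called members, 17 were smaller without WT1, and 9 of the 10 below 0 were larger in size.

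**Figure D2:**
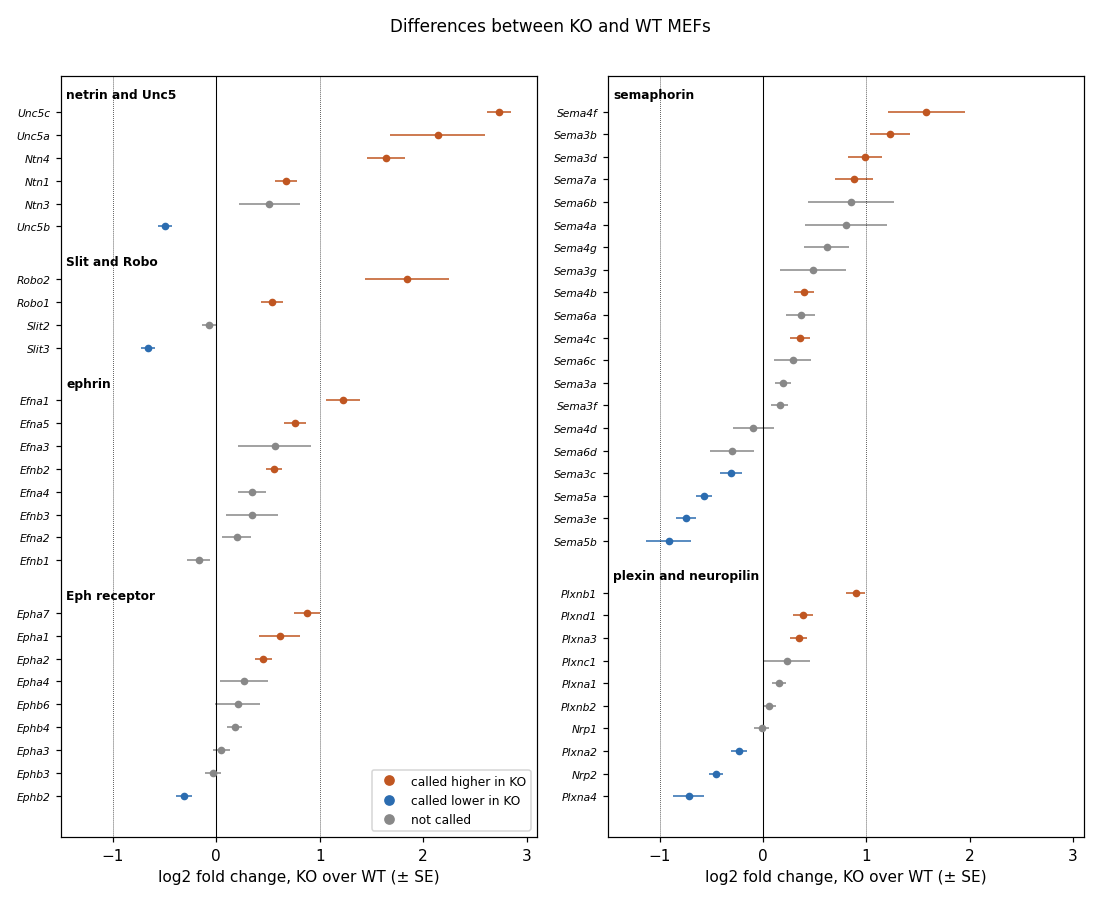
Log2 fold change of KO over WT with its standard error for the 57 members with a mean of at least 1 CPM, coloured by the call at an adjusted p below 0.05, with dotted lines at a 2-fold change. Points right of the upper dotted line are the 7 DEGs led by Unc5c at 2.74, and no point lies left of the lower one.

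Netrins and their Unc5 receptors held the largest changes. Unc5c, a receptor that mediates repulsion from netrin-1 and can trigger cell death when netrin is lacking, stood at 5.64, 6.20 and 6.87 CPM in WT and 45.5, 41.5 and 38.5 CPM in KO. Every KO library thus exceeded every WT library by a wide margin, and the log2 fold change was 2.74 (SE 0.12, adjusted p = 1.95e-113), or 6.66-fold. By limma-voom the adjusted p of Unc5c was 9.52e-11. Its gene lies at chr3:141170977-141540685 of the plus strand in the coordinates of the table, which are GRCm39. Unc5a, a related receptor known mainly from neurons, was low, with 2, 7 and 9 counts in WT and 42, 25 and 28 counts in KO. This amounted to 0.157, 0.499 and 0.483 CPM against 1.98, 1.503 and 1.75 CPM, a log2 fold change of 2.14 (SE 0.46, adjusted p = 8.25e-05) that was 1.82 without WT1. Unc5b, the receptor of the family that endothelial and other non-neural cells use, went the other way, from 327.9, 376.9 and 397.1 CPM in WT to 258.9, 248.2 and 273.0 CPM in KO. Its log2 fold change was -0.50 (SE 0.07, adjusted p = 1.86e-11), and no KO library reached the lowest WT library. Unc5d had at most 4 counts in a library and was not called.

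Per length, Unc5b remained the main Unc5 receptor in both genotypes. It made up 99.3% ± 0.0525 (SD, n = 3) of the summed Unc5 FPKM in WT and 94.1% ± 0.597 in KO, while Unc5c went from 0.552% ± 0.0153 to 4.96% ± 0.527. Because Unc5b carried nearly all of the sum, the family total was lower in KO, at 58.9 ± 5.49 FPKM in WT and 44.0 ± 1.89 FPKM in KO.

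Ntn4 and Ntn1 rose. Ntn4, a netrin of basement membranes that binds laminin, went from 2.98, 2.99 and 3.60 CPM in WT to 8.92, 10.0 and 11.3 CPM in KO, a log2 fold change of 1.64 (SE 0.18, adjusted p = 3.14e-17). Ntn1, the best known secreted netrin, went from 15.4, 18.1 and 17.9 CPM to 27.9, 26.4 and 27.9 CPM, with a log2 fold change of 0.67 (SE 0.11, adjusted p = 2.42e-08). In neither gene did the genotypes overlap. The summed netrin level went from 3.97 ± 0.301 FPKM in WT to 7.53 ± 0.359 FPKM in KO, and the Ntn4 share of it from 21.4% ± 2.14 to 35.7% ± 3.80. Ntn3 lay between 1.61 and 1.96 CPM in WT and between 1.44 and 3.78 CPM in KO, overlapped between genotypes and was not called. It overlaps Tbc1d24 on the same strand by 1715 bases, and reads there cannot be assigned with certainty. Ntn5 had counts in 1 WT and 1 KO library only.

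Of the other netrin receptors, Dcc, the classic receptor of attraction, had 1 count in KO1 and none elsewhere. Neo1, which encodes the related receptor neogenin, stood at 92.2, 105.7 and 111.8 CPM in WT and at 135.1, 131.2 and 135.9 CPM in KO, a log2 fold change of 0.37 (SE 0.07, adjusted p = 1.59e-05).

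The promoters of Unc5c and Ntn4, which rose, and of Slit3, which fell, are shown because these genes carry both directions of change. They are not the genes of largest change throughout, since Unc5a and Robo2 rose by more than Ntn4. Sema5b, Sema3e and Plxna4 fell by more than Slit3. Sequences are RefSeq promoters of build GRCm38.p6, from 250 bases before to 50 bases after a gene's start, all from the plus strand, in lower case with GC boxes (GGGCGG, or CCGCCC on the other strand, overlapping copies included) in capitals. Unc5c lies at chr3:141465314-141465613, Ntn4 at chr10:93640799-93641098 and Slit3, the highest member that fell, at chr11:35121206-35121505.
Unc5c: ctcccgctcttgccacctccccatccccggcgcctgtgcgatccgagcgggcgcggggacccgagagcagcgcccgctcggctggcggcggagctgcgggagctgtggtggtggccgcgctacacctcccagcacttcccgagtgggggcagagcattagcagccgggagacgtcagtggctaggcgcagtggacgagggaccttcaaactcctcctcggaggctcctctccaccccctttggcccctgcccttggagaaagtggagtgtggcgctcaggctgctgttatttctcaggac
Ntn4: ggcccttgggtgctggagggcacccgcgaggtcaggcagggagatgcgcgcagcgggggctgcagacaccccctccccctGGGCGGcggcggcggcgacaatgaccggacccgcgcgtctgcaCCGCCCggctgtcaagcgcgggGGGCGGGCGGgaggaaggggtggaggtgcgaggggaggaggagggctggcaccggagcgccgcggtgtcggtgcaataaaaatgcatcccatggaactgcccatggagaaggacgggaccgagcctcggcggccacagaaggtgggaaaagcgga
Slit3: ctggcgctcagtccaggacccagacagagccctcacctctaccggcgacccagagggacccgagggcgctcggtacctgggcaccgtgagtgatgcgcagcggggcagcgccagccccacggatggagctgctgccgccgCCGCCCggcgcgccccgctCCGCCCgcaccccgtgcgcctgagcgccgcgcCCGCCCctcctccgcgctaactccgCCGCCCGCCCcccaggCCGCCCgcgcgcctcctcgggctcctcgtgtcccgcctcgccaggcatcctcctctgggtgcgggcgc
The Unc5c window had no GC box, 24 CpG and 68.3% G and C, the Ntn4 window 4 GC boxes, 31 CpG and 72% G and C, and the Slit3 window 6 GC boxes, 41 CpG and 78.3% G and C. None of the 3 held a TATA box (TATAAA, or TTTATA on the other strand) or a CCAAT box (CCAAT, or ATTGG on the other strand).

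RefSeq gave 75 promoters for 59 of the 68 members. Their G and C content had a median of 64.3% against 52.7% over 32851 promoters, though it varied among members and was 41.3% for Sema3a. Of the members' promoters 70.7% held a GC box, against 35.7% of all promoters of the same length. A TATA box was in 2.67% of the members' promoters against 13.6% of all, and a CCAAT box in 28% against 37.4%. The 32851 promoters belonged to 27025 genes and were not limited to protein-coding genes, as members were. A GC box was in 72% of 25 promoters of members called higher, in 77.8% of 9 promoters of members called lower and in 68.3% of 41 promoters of members not called. A match describes letters only, and the start sites that these fibroblasts use were not measured.

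In the Slit and Robo family the ligand of highest FPKM fell and 2 of its receptors rose. Slit3, a secreted ligand of Robo receptors at chr11:35012051-35599334 (GRCm39, plus strand), went from 349.3, 421.7 and 446.6 CPM in WT to 253.6, 260.1 and 255.6 CPM in KO, a log2 fold change of -0.66 (SE 0.07, adjusted p = 2.73e-20). WT1 was the lowest WT library, yet all KO libraries lay below it, and without WT1 the value was -0.76. Slit2, another ligand of these receptors, stood at 293.4, 338.1 and 349.5 CPM in WT and at 310.7, 308.3 and 317.2 CPM in KO. Its libraries overlapped, with a log2 fold change of -0.07 (SE 0.07, adjusted p = 0.665). Slit3 accounted for 83.8% ± 0.505 of summed Slit FPKM in WT and 77.5% ± 0.452 in KO, and the sum was 79.5 ± 9.14 FPKM and 54.3 ± 0.559 FPKM. These shares depend on the listed gene lengths, 25433 bases for Slit2 and 6067 bases for Slit3. In CPM, Slit3 averaged 405.9 in WT against 327.0 for Slit2, but 256.4 in KO against 312.1. Slit1 had at most 6 counts in a library.

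Robo1, the widely used Slit receptor, stood at 13.8, 19.7 and 20.9 CPM in WT and at 27.7, 28.01 and 24.0 CPM in KO, with a log2 fold change of 0.54 (SE 0.11, adjusted p = 1.75e-05) that was 0.39 without WT1. Robo2, a receptor with a known role in kidney and ureter formation as well as in neurons, was scarce, at 8, 11 and 6 counts in WT and 43, 34 and 32 counts in KO. Its log2 fold change was 1.84 (SE 0.41, adjusted p = 1.76e-04), and its KO libraries, at 2.03, 2.04 and 1.998 CPM, lay above all WT libraries, which ranged from 0.322 to 0.784 CPM. Robo1 still made up 96.5% ± 2.004 of summed Robo FPKM in WT and 92.8% ± 0.484 in KO.

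**Figure D3:**
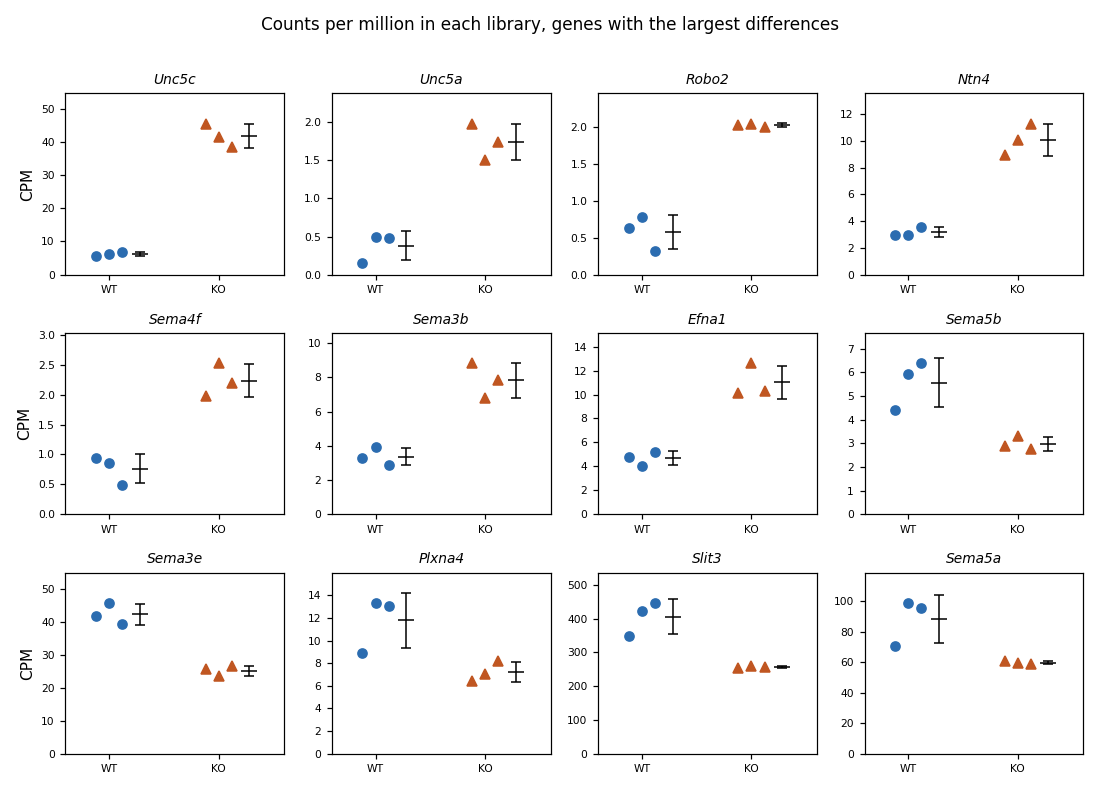
CPM in each library for the 7 DEGs and for the 5 members with the lowest log2 fold change among those called lower, with WT libraries as circles, KO libraries as triangles, and the mean and SD of each genotype as black bars, each panel with its own axis from 0. WT and KO libraries do not overlap in any panel, and WT1, the first circle, is the lowest WT library for Unc5c, Unc5a, Ntn4, Sema5b, Plxna4, Slit3 and Sema5a.

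Of the 8 ephrins 3 rose and none was called lower. Efna1, a GPI-anchored ligand of EphA receptors, went from 4.78, 4.06 and 5.21 CPM in WT to 10.2, 12.6 and 10.3 CPM in KO, a log2 fold change of 1.22 (SE 0.17, adjusted p = 1.08e-11). Efna5, a ligand known from the mapping of retinal axons, went from 16.5, 17.6 and 17.5 CPM to 30.9, 26.8 and 29.8 CPM, a log2 fold change of 0.76 (SE 0.11, adjusted p = 7.62e-11). Efnb2, the transmembrane ligand that marks arteries, stood highest of the ephrins, at 82.4, 88.2 and 83.5 CPM in WT and 125.3, 122.9 and 125.9 CPM in KO. Its log2 fold change was 0.56 (SE 0.08, adjusted p = 1.28e-11), with a tight spread in both genotypes. In all 3 of these genes every KO library lay above every WT library. Efna4, the second highest ephrin by FPKM, averaged 10.7 ± 0.392 CPM in WT and 13.6 ± 1.76 CPM in KO, which was not called (log2 fold change 0.35, SE 0.13, adjusted p = 0.0915). Efna2, Efna3, Efnb1 and Efnb3 were not called either. Summed ephrin-A levels went from 18.6 ± 0.291 to 27.8 ± 1.21 FPKM and ephrin-B levels from 19.2 ± 0.908 to 24.5 ± 0.257 FPKM.

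EphA and EphB receptors differed in what was called. Of 9 EphA genes 3 rose and none was called lower, and of 5 EphB genes 1 fell and none was called higher. At a mean of at least 1 CPM there were 5 EphA and 4 EphB genes, where 9.08% of all genes were called higher and 7.88% lower. Whether the classes differ was not tested. Epha2, a receptor for ephrin-A1 found in many epithelia and tumours, led the EphA class by FPKM and went from 56.5, 55.8 and 61.2 CPM in WT to 78.2, 74.5 and 85.4 CPM in KO. Its log2 fold change was 0.45 (SE 0.08, adjusted p = 7.64e-07). Epha7, another receptor for ephrin-As, went from 10.0, 10.8 and 10.2 CPM to 19.1, 18.1 and 19.8 CPM, a log2 fold change of 0.88 (SE 0.13, adjusted p = 2.30e-10). Epha1 averaged 3.74 ± 0.989 CPM in WT and 5.81 ± 0.249 CPM in KO, with a log2 fold change of 0.61 (SE 0.20, adjusted p = 0.0325). That call was lost by DESeq2 (adjusted p = 0.126) and by limma-voom (adjusted p = 0.108), and without 5 of the 6 libraries in turn, WT1 among them (log2 fold change 0.47, adjusted p = 0.153). The Epha1 span overlaps that of Zyx on the other strand by 1727 bases, and Zyx, at 354.6 CPM in WT and 382.5 CPM in KO, could lend reads to it, since the kit named does not mark strand. Epha3 was not called, at 7.69 ± 0.555 FPKM in WT and 7.94 ± 0.616 FPKM in KO.

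Ephb2, a receptor for ephrin-Bs that sorts cells at boundaries, stood at 69.0, 86.2 and 90.0 CPM in WT and 68.8, 61.8 and 67.3 CPM in KO, with a log2 fold change of -0.31 (SE 0.08, adjusted p = 0.00176). WT1 nearly met KO1, and the call was lost without WT replicate 3 or without KO replicate 2, to an adjusted p of at most 0.0856, whereas without WT1 the log2 fold change was -0.42 (adjusted p = 5.13e-09). Ephb4, the receptor for ephrin-B2 known from veins and the highest Eph receptor, stood at 110.4, 111.7 and 131.0 CPM in WT and 132.6, 129.2 and 137.5 CPM in KO, which was not called (log2 fold change 0.18, SE 0.07, adjusted p = 0.137). Ephb3 was not called either, with a log2 fold change of -0.03 (SE 0.08, adjusted p = 0.863). Adjusted p-values that miss the threshold do not show that levels were equal.

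Semaphorins moved in both directions, with 6 higher, 4 lower and 10 not called of 20. Among the 7 secreted class 3 genes, 2 rose and 2 fell. Sema3b, a ligand that acts through neuropilins, went from 3.29, 3.92 and 2.90 CPM in WT to 8.83, 6.79 and 7.87 CPM in KO, a log2 fold change of 1.23 (SE 0.19, adjusted p = 1.12e-08). Sema3d, known from the guidance of neural crest and endothelial cells, went from 3.68, 6.34 and 4.83 CPM to 10.2, 9.56 and 9.80 CPM, a log2 fold change of 0.99 (SE 0.17, adjusted p = 1.97e-07) that was 0.83 without WT1. Sema3e, which binds plexin-D1 directly, fell from 41.9, 45.9 and 39.5 CPM to 25.7, 23.6 and 26.5 CPM, a log2 fold change of -0.75 (SE 0.10, adjusted p = 4.76e-13). None of these 3 genes overlapped between genotypes. Sema3c, a ligand of both neuropilins, stood at 26.4, 28.1 and 23.2 CPM in WT and 20.3, 21.3 and 21.04 CPM in KO, with a log2 fold change of -0.31 (SE 0.11, adjusted p = 0.0436). That call was lost by DESeq2 (adjusted p = 0.111), by limma-voom (adjusted p = 0.124) and without 4 of the 6 libraries in turn.

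The most abundant semaphorins were not called. Sema3f, the classic ligand of neuropilin-2, stood at 12.2 ± 0.204 FPKM in WT and 13.6 ± 0.111 FPKM in KO (log2 fold change 0.16, SE 0.08, adjusted p = 0.259). Sema3a, the collapse factor that binds neuropilin-1, stood at 8.42 ± 0.655 FPKM and 9.62 ± 0.131 FPKM (log2 fold change 0.19, SE 0.07, adjusted p = 0.0855). The KO libraries of both genes lay above their WT libraries by a small margin. In the sum of class 3 FPKM, which was 30.4 ± 1.54 in WT and 32.1 ± 0.194 in KO, Sema3e went from 15.0% ± 0.648 to 8.44% ± 0.446 and Sema3b from 2.31% ± 0.261 to 5.08% ± 0.625.

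**Figure D4:**
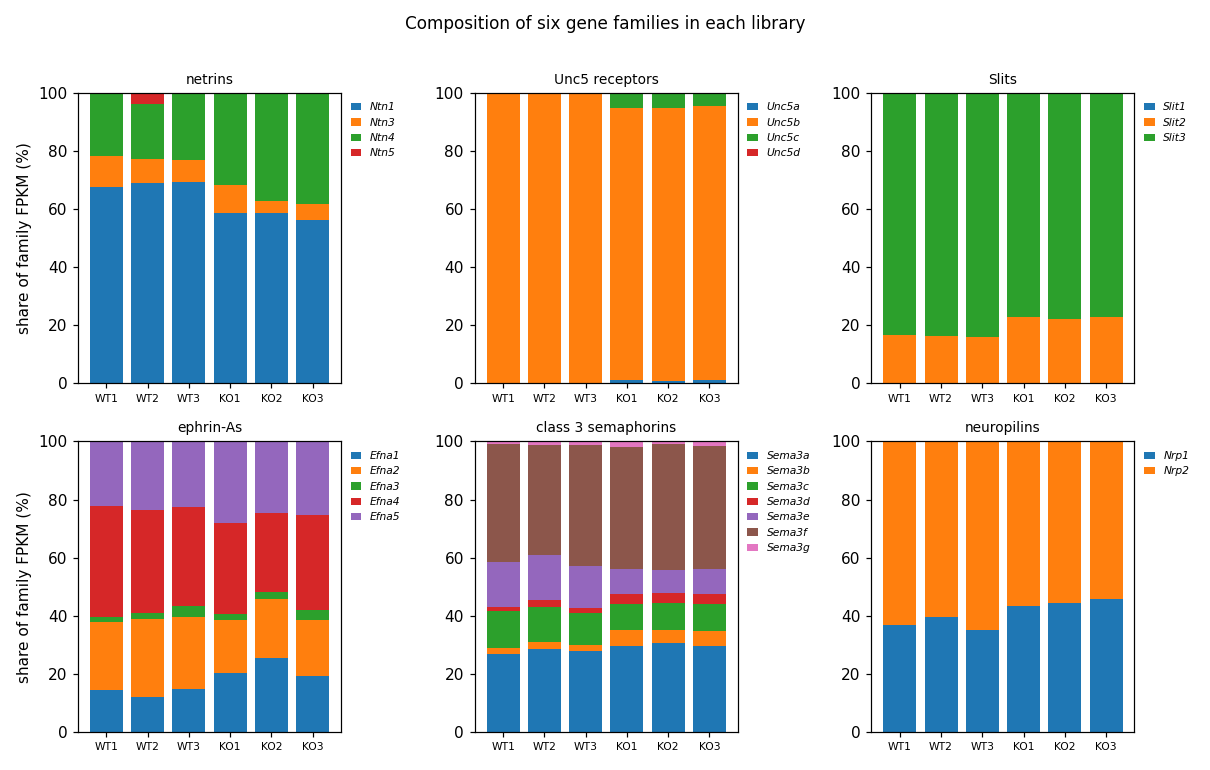
Share of each gene in the summed FPKM of its family, in percent, for the 6 libraries, as stacked bars for netrins, Unc5 receptors, Slits, ephrin-As, class 3 semaphorins and neuropilins. The Ntn4, Unc5c, Slit2, Efna1 and Nrp1 shares were larger in every KO library than in any WT library, and the Sema3e share was smaller.

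Membrane-bound semaphorins of classes 4 and 7 rose where they were called, and those of class 5 fell. Sema4f, a low transmembrane gene, went from 12, 12 and 9 counts in WT to 42, 42 and 35 counts in KO, a log2 fold change of 1.58 (SE 0.37, adjusted p = 5.49e-04) that was 1.76 without WT1. Sema4b went from 24.8, 29.1 and 30.7 CPM to 36.1, 35.2 and 40.5 CPM, a log2 fold change of 0.40 (SE 0.10, adjusted p = 7.61e-04). Sema4c, a ligand of plexin-B2, went from 27.3, 29.0 and 26.5 CPM to 35.2, 33.6 and 37.4 CPM, a log2 fold change of 0.36 (SE 0.10, adjusted p = 0.00366), and its call was lost without KO replicate 3. Sema7a, a GPI-anchored semaphorin that signals through plexin-C1 and integrins, went from 4.62, 4.13 and 3.81 CPM to 7.03, 6.67 and 9.37 CPM, a log2 fold change of 0.88 (SE 0.19, adjusted p = 6.81e-05).

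Class 5 semaphorins carry thrombospondin repeats beside the semaphorin domain, and both of the listed genes fell. Sema5a stood at 70.4, 98.9 and 95.7 CPM in WT and 60.8, 59.6 and 58.7 CPM in KO, a log2 fold change of -0.57 (SE 0.08, adjusted p = 5.64e-11). Sema5b stood at 4.39, 5.92 and 6.39 CPM in WT and 2.88, 3.31 and 2.75 CPM in KO, a log2 fold change of -0.91 (SE 0.21, adjusted p = 5.33e-04). In each gene WT1 was the WT library nearest to KO, and without it the values were -0.70 and -1.05. The 4 class 6 genes were not called. Sema6d, the only member that starts within 10 Mb of Mcm8, at 8.73 Mb, had a log2 fold change of -0.30 (SE 0.21, adjusted p = 0.517).

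Among semaphorin receptors, 3 plexins rose, while 2 plexins and 1 neuropilin fell. Plxnb1, the receptor of semaphorin 4D, went from 25.2, 27.7 and 35.6 CPM in WT to 54.5, 51.9 and 59.6 CPM in KO, a log2 fold change of 0.90 (SE 0.09, adjusted p = 4.91e-21) that was 0.79 without WT1 and was the largest rise of the 8 plexins with at least 1 CPM. Plxnd1, the receptor of semaphorin 3E, averaged 25.9 ± 5.00 CPM in WT and 34.1 ± 0.199 CPM in KO. Its log2 fold change of 0.38 (SE 0.10, adjusted p = 0.00186) was 0.24 without WT1, where the call was lost (adjusted p = 0.0671). Plxna3, a coreceptor partner of neuropilins on the X chromosome, went from 48.8, 67.9 and 63.8 CPM to 77.8, 75.1 and 76.6 CPM, a log2 fold change of 0.34 (SE 0.08, adjusted p = 4.71e-04) that was 0.22 without WT1. The shift in Xist given above moved with it, and its part in this difference was not tested. Of the other X-linked members, Plxnb3 had 1 count in all, and Efnb1 was not called (log2 fold change -0.17, SE 0.11, adjusted p = 0.456).

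Plxna4, a receptor for class 3 and class 6 semaphorins, fell from 8.94, 13.3 and 13.0 CPM in WT to 6.47, 7.03 and 8.18 CPM in KO, a log2 fold change of -0.72 (SE 0.15, adjusted p = 4.80e-05) that was -0.87 without WT1. Plxna2, the called member with the smallest change, had a log2 fold change of -0.23 (SE 0.08, adjusted p = 0.0348). Its libraries overlapped, since WT1 at 65.7 CPM lay below all KO libraries, which ranged from 73.6 to 74.7 CPM, while WT2 and WT3 were at 102.3 and 93.5 CPM. By DESeq2 its adjusted p was 0.267 and by limma-voom 0.298. The call was lost without each of the other 5 libraries, with a log2 fold change as small as -0.11 and an adjusted p of up to 0.602 by edgeR. Without WT1 the log2 fold change was -0.39 and the call remained (adjusted p = 1.00e-08). Plxnb2 and Plxna1, the plexins of highest level, were not called, with log2 fold changes of 0.06 (SE 0.07, adjusted p = 0.682) and 0.15 (SE 0.07, adjusted p = 0.183).

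Neuropilins bind class 3 semaphorins and forms of VEGF. Nrp2 fell from 247.6, 270.2 and 301.8 CPM in WT to 209.4, 196.0 and 193.1 CPM in KO, with no overlap, a log2 fold change of -0.45 and an adjusted p of 3.77e-09 (SE 0.07). Nrp1 stood at 118.4, 145.1 and 135.1 CPM in WT and 131.7, 128.5 and 134.6 CPM in KO (log2 fold change -0.01, SE 0.07, adjusted p = 0.949). The Nrp2 share of summed neuropilin FPKM was 62.9% ± 2.15 in WT and 55.6% ± 1.27 in KO.

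Other genes of these pathways were read from lists of 32 coreceptors and other cues and 53 intracellular effectors. Of these 85 genes 84 were tested, and 14 were higher and 7 lower in KO, 16.7% and 8.33%, beside 4.97% and 4.03% of all genes. All of these were among 68 partners with at least 1 CPM, 20.6% and 10.3% of them, beside 9.08% and 7.88% of genes at that level, which Lrrc4c and Ngef reached with a WT mean under 1 CPM. Of the coreceptors and cues 5 rose and 1 fell, and of the effectors 9 rose and 6 fell. With 1 library left out the 14 higher calls became from 9, without KO replicate 3, to 16, without WT replicate 3. The 7 lower calls became from 2 to 14, 14 without WT replicate 1 and 2 without KO replicate 3, and 4 with library totals alone. Srgap3, a GTPase-activating protein that acts downstream of Slit and Robo, went from 0.549, 1.35 and 1.34 CPM in WT to 7.69, 9.02 and 9.30 CPM in KO, a log2 fold change of 2.95 (adjusted p = 4.01e-33). Its relative Srgap1 went from 5.80, 6.99 and 7.19 CPM to 16.7, 14.6 and 13.7 CPM, a log2 fold change of 1.16 (adjusted p = 6.11e-14). Lrrc4c, which encodes the netrin-G1 ligand, rose from a mean of 0.673 to 3.23 CPM, and Ngef, which acts downstream of EphA4, from 0.539 to 2.46 CPM. Gpc1, a glypican whose heparan sulfate binds Slits, went from 77.9, 82.8 and 90.7 CPM to 173.8, 175.8 and 187.6 CPM, a log2 fold change of 1.09 (adjusted p = 4.94e-46). The lowest log2 fold changes of the called partners were modest, -0.38 for Ablim1, an actin-binding protein tied to netrin responses, -0.37 for Rasa1, a Ras GTPase-activating protein, and -0.28 for Lrp8, a reelin receptor whose libraries overlapped.

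The same 25 members, 18 higher and 7 lower, were called in 14 fits to the counts, which included DESeq2, limma-voom, other scalings and each library left out in turn. The others were Epha1, Ephb2, Plxna2, Plxnd1, Sema3c and Sema4c. Against a 2-fold change as the null, edgeR's test called Unc5c and Ntn4 alone. No log2 fold change of a called member turned its direction in 527 values under all alternatives. These fits reuse libraries of the fit that chose the members, so a reversal was unlikely from the start.

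**Figure D5:**
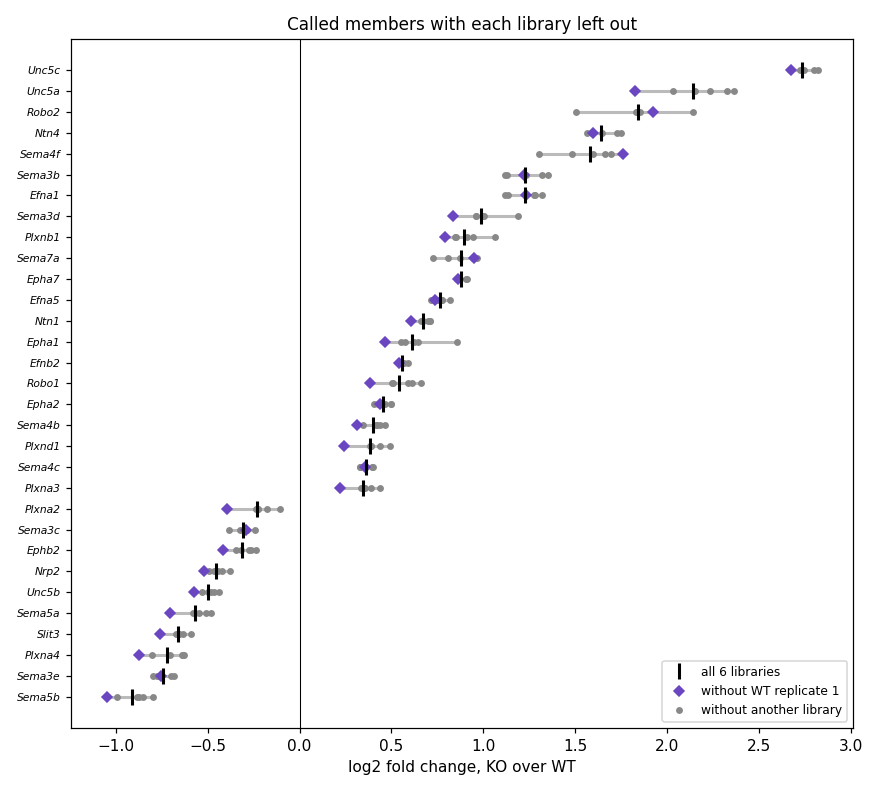
Log2 fold change of KO over WT for the 31 called members with all 6 libraries (black bars), without WT replicate 1 (diamonds) and without each other library (grey points). No point crosses 0, the widest ranges belong to the low genes Unc5a and Robo2, and the diamonds lie left of the black bars for 17 of the 21 members called higher and 9 of the 10 called lower.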

How the data were processed

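RNA of 3 WT and 3 KO libraries of MEFs was made into libraries with the NEBNext Ultra RNA kit and sequenced as read pairs. The authors aligned reads with Hisat2 2.0.5 and counted them per gene with featureCounts 1.5.0-p3, per the labels and methods, and the submitters' processing notes also list CASAVA 1.8, fastp and DESeq2 1.20.0. The deposited counts are raw whole numbers per gene, and the deposited FPKM values are those counts over gene length and library size, calculated by the authors. Coordinates of the table are those of Ensembl 106 (GRCm39), although the notes name GRCm38, so promoters, which are RefSeq GRCm38.p6, were matched by symbol only.

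Genes with a count in at least 1 library (26898) were fitted with edgeR 4.0.16 (TMM, quasi-likelihood test, R 4.3.3), KO against WT with no covariate, and p-values were adjusted by Benjamini-Hochberg over all of them. The prior degrees of freedom were infinite, which gives every gene the fitted trend of spread for its level. Standard errors were derived from the quasi-likelihood F, and CPM used TMM factors between 0.9796 and 1.012. Totals of 12722979 to 21022755 counts set the precision of low genes, and 3 counts in a library were taken as the floor. Alternatives were DESeq2 1.42.0, limma-voom (limma 3.58.1), a robust prior, a test against a 2-fold change, RLE scaling, library totals alone, filterByExpr (14332 genes), all listed genes, a replicate block, each library left out, limma on log2(FPKM + 1) and on log2(FPKM + 0.1), and other FPKM thresholds. The code was checked on simulated counts. Tables and figures were made with Python 3.11.15.

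The members, the marker and partner lists and the tests were chosen with earlier results of these data known. Genes are named if they are called members (the 30 of largest change, with Plxna2 added after its values were seen), the 2 highest by FPKM in a family, within 10 Mb of Mcm8, at 3 or fewer counts throughout, overlapped by another gene where called, or the 3 highest and 3 lowest called partners. Dcc, Neo1, Srgap1, Srgap2 and Gpc1 were added for their role after their values were seen, as were other members named with a value. Splicing and protein data were not analysed here.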

Additional observations from a re-analysis of the deposited data

How the results depend on the processing

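Counts of called members held within 1.5 times under DESeq2, limma-voom, a robust prior, RLE scaling, library totals, filterByExpr and all listed genes, and 433 of 527 log2 fold changes of called members kept their direction and side of the threshold, 94 lost the call and 0 reversed. The test against a 2-fold change called 2 members higher, 0 lower and 2 DEGs, and 3 partners higher and 0 lower. With limma on log2(FPKM + 1), 12 members were higher, 4 lower and 1 a DEG, with 6 partners higher and 1 lower. With log2(FPKM + 0.1) the values were 11, 4 and 4 members, and 5 and 1 partners. Library totals alone called 4 partners lower, in place of 7, and 23 members higher and 8 lower, with a median shift of all genes of 0.02 on the log2 scale. The cause of these changes was not tested, apart from the higher bar of the 2-fold test.

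With each library left out, from 19 to 24 members were higher, from 7 to 11 lower, from 7 to 9 DEGs higher and from 0 to 1 lower (Sema5b, without WT replicate 1). Partners were from 9 to 16 higher and from 2 to 14 lower, with 14 lower without WT replicate 1, 4 without WT replicate 3, 3 without KO replicate 1 or 2, and 2 without KO replicate 3. At 0.1 FPKM in place of 1 FPKM 55 members were above in WT and 57 in KO, and at 5 FPKM 20 and 24.

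The replicate numbers of WT and KO did not pair the libraries, as deviations of same-numbered libraries correlated at -0.0250, -0.0157 and 0.0373 over 14332 genes. Under a replicate block 22 members were called higher and 8 lower, 8 were DEGs higher and 0 lower, and 13 partners were higher and 6 lower. Of the 31 called members Sema3c (adjusted p = 0.0522) and Plxna2 (adjusted p = 0.0904) were not called under the block. Mcm8 kept its fall, at a log2 fold change of -1.75 under the block. Not every library correlated best with its own number.

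Depth limits the low members. Robo2, Unc5a and Sema4f rested on 6 to 11, 2 to 9 and 9 to 12 counts in a WT library, and members at 3 or fewer counts could not be compared.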

Other observations

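Estimates for members that lie next to each other were far apart in some pairs and nearer in others. On chromosome 3, Efna1, Efna3 and Efna4 follow one another with gaps of 32.8 and 10.4 kb, and their log2 fold changes were 1.22, 0.56 and 0.35, with Efna1 alone called. On chromosome 5, Sema3d, Sema3a and Sema3e are 536.5 and 422.8 kb apart, and their values were 0.99, 0.19 and -0.75, with Sema3d called higher and Sema3e called lower. Sema3b and Sema3f on chromosome 9, 72.3 kb apart, had values of 1.23 and 0.16, with Sema3b called. Robo1 and Robo2 on chromosome 16, 845.7 kb apart, were both called higher, at 0.54 and 1.84. These are 6 of the 11 pairs of neighbours within 1000 kb and were picked after their values were seen. Of the others, Sema4a and Efna1 had values of 0.81 and 1.22 and Ephb6 and Epha1 of 0.21 and 0.61, while the pairs of Ephb2 with Epha8, Robo3 with Robo4 and Plxnb3 with Plxna3 include a member with at most 5 counts in any library. The differences between neighbours were not tested.

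A further 11 members with at least 1 CPM had all KO libraries above all WT libraries without being called, namely Efna2, Efna4, Epha4, Ephb6, Plxnc1, Sema3a, Sema3f, Sema4a, Sema4g, Sema6a and Sema6b. Called or not, 16.9% of 13222 genes at that level had KO libraries all above WT libraries, and Sema4a and Sema6b reached it with a WT mean under 1 CPM. The nearest to the threshold was Sema4g, a transmembrane semaphorin, at 3.13, 3.28 and 3.27 CPM in WT and 4.96, 4.69 and 5.25 CPM in KO, with a log2 fold change of 0.62 (SE 0.22, adjusted p = 0.0510 by edgeR).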
